A study of Mus musculus with 13 samples.

Results

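*Pvalb*, *Calb1* and *Calb2* were followed in proprioceptive sensory neurons (pSNs) of mouse dorsal root ganglia (DRG). They are 3 of the 50508 genes listed in the deposited tables, and were taken by symbol. The values come from the 586 neurons that the authors' annotation keeps, by developmental stage, by cluster and neuron by neuron. Of the 208 adult neurons, 42 are set apart there from the main clusters. The paper left these out of its later analysis, as non-proprioceptor classes or small clusters, but the adult stage values here include them. Neurons of adult, p12 and p0 *PVRx3:tdT* mice (*PV:Cre*, *Rx3:FlpO* and the *Ai65* reporter, 1 copy of each) were sorted singly, and each plate has 96 wells. In these mice tdT marks cells that have expressed both recombinases, and *PV:Cre* is driven by the *Pvalb* locus, so a history of *Pvalb* expression is a condition of the sort. Neurons of e14.5 embryos were sorted with another allele, *TrkC:tdTomato*, which does not depend on *Pvalb* and also labels TrkC neurons that are not proprioceptors. Adult (p56 or older) neurons filled 5 plates from 6 animals, p12 neurons 4 plates from 4 animals, p0 neurons 2 plates from 6 animals and e14.5 neurons 2 plates from 2 animals, of either sex and with no link between plate and animal. Plates are the replicates here, and p-values measure the spread between plates, which may be technical. The adult plates came from fewer experiments than there are plates, and no label ties a plate to its experiment, so they may not be independent.

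The 3 genes encode EF-hand proteins, in which a helix, a short loop and a second helix hold a calcium ion. Parvalbumin, calbindin D-28k (*Calb1*) and calretinin (*Calb2*) are mobile buffers of the cytosol that bind calcium that enters during firing and so shape its time course. Their separate use by different classes of neuron has made them common markers in the nervous system. In the DRG, parvalbumin is known as a marker of proprioceptors, the afferents that report muscle length from muscle spindles (MSs) and force from Golgi tendon organs (GTOs), and calretinin and calbindin D-28k mark smaller subsets of large sensory neurons.

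On GRCm38, *Pvalb* (gene 19293) spans chromosome 15, 78191112 to 78206400, on the minus strand, *Calb1* (gene 12307) chromosome 4, 15881264 to 15906709, on the plus strand, and *Calb2* (gene 12308) chromosome 8, 110142526 to 110168212, on the minus strand (RefSeq). No other gene of the GENCODE vM21 annotation overlaps any of them. Their coding sequences hold 110, 261 and 271 codons, in which a pattern of the calcium-binding loop was found 2, 4 and 5 times. The loop has 12 codons. One loop of each gene that lies within a single exon is shown here, 5′ to 3′, because the loop is what makes the genes a family. Capitals mark codons 1, 3, 5, 7, 9 and 12, the positions of the loop that contact calcium.
Pvalb exon 3, chr15:78202526-78202561, minus strand: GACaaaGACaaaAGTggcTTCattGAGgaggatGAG
Calb1 exon 5, chr4:15895644-15895679, plus strand: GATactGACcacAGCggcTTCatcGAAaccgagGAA
Calb2 exon 5, chr8:110149362-110149397, minus strand: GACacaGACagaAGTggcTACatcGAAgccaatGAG
The loops of *Calb1* and *Calb2*, the closest relatives of the 3, share 25 of their 36 bases. Over the whole transcripts, the longest run that is identical was 12 bases between *Calb1* and *Calb2* and 11 bases between *Pvalb* and either of them. No stretch of 58 bases, the length of a read, was shared, so reads of the 3 genes can be told apart.

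Depth was highest after birth. A plate held 2717982 to 4202745 UMIs over all its wells in the adult, 1989558 to 5554918 at p12, 2495137 and 3223181 at p0, and 915750 and 1032454 at e14.5. The kept neurons had median depths of 36926.5, 24462.5, 41058 and 10604 UMIs at these stages. Levels are in CPM, a gene's UMIs per 1000000 UMIs of the neuron, averaged over the neurons of the plate, and shares of neurons with a UMI were also taken after each neuron was thinned to 7000 UMIs. All 96 well barcodes were used on every plate, so a barcode alone does not identify a neuron. Proprioceptor markers (*Ntrk3*, *Runx3*, *Etv1*, *Whrn*, *Slc17a7*, *Isl1*) were all detected at each stage and summed to 1037 to 1846 CPM per plate, against 0 to 17.8 CPM for 5 nociceptor markers. The 4 p12 plates stand apart in pairs: replicates 1 and 2 gave 12 and 13 kept neurons, all in p12 clusters 2 and 3, while replicates 3 and 4 gave 67 and 62, all in clusters 1, 4 and 5. Adult clusters 2 and 4 lay on replicates 1 and 2 alone. For the 3 genes, stage tests that use p12 were therefore also run on each pair of p12 plates, a division taken after the data were seen.

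The 3 genes followed different courses. *Pvalb* was present at e14.5, rose at p0, passed no test between p0 and p12, and fell in the adult. *Calb2* had 1 UMI in all the e14.5 neurons and 3 in all the p0 neurons, and rose at p12. *Calb1* was present at low level at each stage and passed no stage test in the main edgeR fit, although some alternative settings called it.

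*Pvalb* averaged 606 and 639 CPM on the e14.5 plates and 3592 and 3562 CPM on the p0 plates. On p12 replicates 1 to 4 it averaged 2820, 3146, 3421 and 3362 CPM, and on adult replicates 1 to 5 1692, 1795, 2287, 2223 and 2288 CPM. The e14.5 plates lay below all the others and the adult plates between them and the p12 plates, with no overlap. All p12 plates lay below both p0 plates, and the gap was smaller than the range of the p12 plates. From e14.5 to p0 *Pvalb* rose by 2.46 on the log2 scale (standard error 0.24, edgeR quasi-likelihood test with Benjamini-Hochberg adjustment over all genes, adjusted p = 1.03e-05), and it was called in all 22 alternative settings. It was the only 1 of the 3 genes called in this contrast, in which 27.8% of 11939 tested genes were called. The stage and the sort (*TrkC:tdTomato* against *PVRx3:tdT*) cannot be told apart here. When only e14.5 clusters 1 and 2 were used, that is, without the clusters poorest in *Pvalb*, the rise was still called (2.18). A list of 5 glia markers summed to 4.05 to 22.6 CPM per plate at e14.5, with *Sox10* at 0, and to 490 to 630 CPM at p0, and their part in the result was not tested. Between p0 and p12 the log2 difference was -0.03 (standard error 0.19, adjusted p = 0.928), and -0.25 and 0.15 against p12 replicates 1 and 2 and replicates 3 and 4 alone (adjusted p = 0.362 and 0.567). From p12 to the adult *Pvalb* fell by 0.66 on the log2 scale (standard error 0.15, adjusted p = 0.0103), where 14.1% of tested genes were called (7.57% higher and 6.56% lower). That fall was called in 21 of 22 alternatives, the exception being p12 replicates 1 and 2 alone (-0.45, adjusted p = 0.1004, against -0.84 for replicates 3 and 4 alone). The 2 contrasts after birth share the p12 plates. The adult sums include 42 of 208 neurons that the annotation sets apart from the main clusters. These averaged 1653 CPM of *Pvalb*, against 1489 to 2499 CPM in the adult clusters. No setting left them out, and their part in the fall was not tested.

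*Calb1* averaged 17.9 and 38.5 CPM on the e14.5 plates, 30.4 and 31.5 CPM at p0, 18.2, 46.4, 13.3 and 17.4 CPM on p12 replicates 1 to 4, and 44.6, 44.0, 40.2, 50.2 and 30.2 CPM on adult replicates 1 to 5. Apart from p12 replicate 2, the p12 plates lay below all the adult plates. A single neuron sets replicate 2 apart: it held 37 of the 44 *Calb1* UMIs of that plate, and without it the plate averaged 11.6 CPM over 12 neurons. The log2 differences were 0.27 (standard error 0.63, adjusted p = 0.792) from e14.5 to p0 and -0.23 (0.54, adjusted p = 0.812) from p0 to p12, where the pairs of p12 plates gave 0.39 and -1.01 (adjusted p = 0.656 and 0.145). With all wells of at least 2000 genes, kept or not, *Calb1* was called lower at p12 than at p0 (-0.97, adjusted p = 0.0182). That setting adds wells that the paper filtered out for transcripts of satellite glia. From p12 to the adult the difference was 1.17 (standard error 0.41), just outside the threshold (adjusted p = 0.0673). It passed in 5 of 22 alternatives, among them no filter on low counts (1.15), all wells (1.37), p12 replicates 3 and 4 alone (1.96, adjusted p = 0.00353) and the fit without p12 replicate 2 (1.76, adjusted p = 0.00454), with adjusted p-values from 1.05e-04 to 0.512 over the 22. The highest was that of p12 replicates 1 and 2 alone, where the difference was 0.55.

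*Calb2* averaged 1.23 and 0 CPM on the e14.5 plates and 1.85 and 1.38 CPM at p0. On p12 replicates 1 to 4 it averaged 493, 391, 66.3 and 10.7 CPM, and on adult replicates 1 to 5 43.1, 37.9, 45.3, 50.9 and 66.8 CPM. All p12 and adult plates lay above all e14.5 and p0 plates, but the p12 plates span the adult range on both sides. The neuron that sets p12 replicate 2 apart in *Calb1* also held 293 of its 376 *Calb2* UMIs, and without it the plate averaged 117 CPM. From p0 to p12 the rise was called (adjusted p = 0.00106, edgeR), as it was in all 22 alternatives. In this contrast 18.1% of tested genes were called (9.10% higher and 9.01% lower), and *Calb2* was the only 1 of the 3. With 3 UMIs at p0 a fitted fold change would turn on the prior count, so the ratio of the pooled rates is given, 179-fold with a 95% counting interval of 61.0 to 869. It differed widely between the pairs of p12 plates, at 438-fold (149 to 2126) for replicates 1 and 2 and 62.6-fold (21.2 to 305) for replicates 3 and 4, and the fitted log2 value of 7.85 was 5.88 after thinning. The rise was called for each pair (adjusted p = 7.14e-08 and 6.34e-04). The same ratio for the adult against p0 was 58.2-fold (19.8 to 283). These intervals cover the counting of UMIs only and leave out the spread between neurons and between plates. No fold is given for e14.5 and p0, where the counts are at or below 3 UMIs. From p12 to the adult *Calb2* was called lower by edgeR (log2 fold change -1.94, standard error 0.57, adjusted p = 0.0341), but this rests on p12 replicates 1 and 2. Against these plates alone it was -2.76 (adjusted p = 2.13e-06) and against p12 replicates 3 and 4 alone -0.03 (adjusted p = 0.972). The call was lost in 11 of 22 alternatives, including DESeq2 (adjusted p = 0.0584) and the fits without adult replicate 1, 2, 3 or 4 or p12 replicate 1 or 2 (adjusted p from 0.0541 to 0.0886 in these 6 fits with 1 plate left out).

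**Figure D1:**
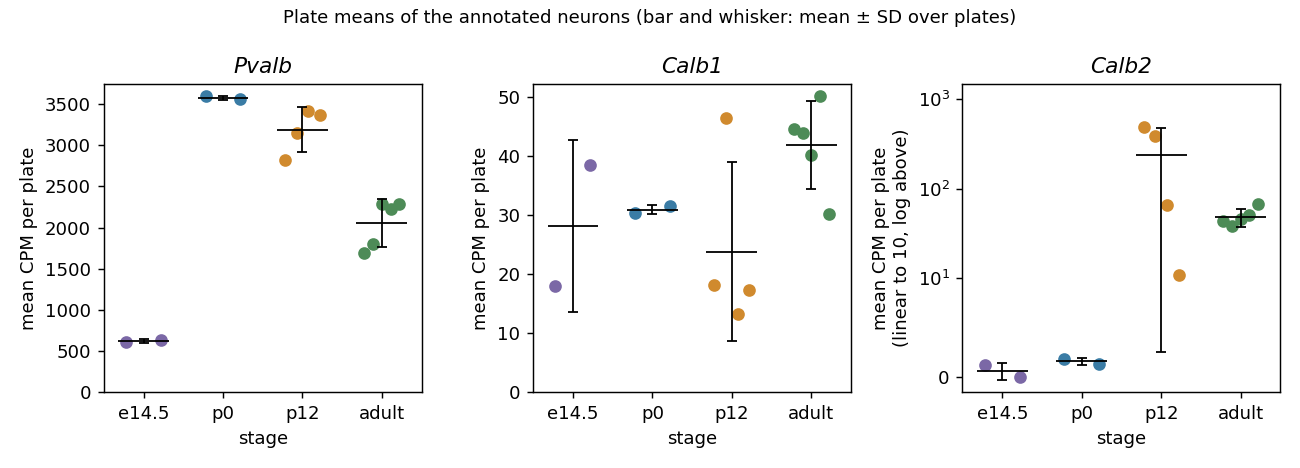
Mean CPM of *Pvalb*, *Calb1* and *Calb2* on each plate (points) by stage, with the mean ± SD over plates; the *Calb2* axis is linear to 10 CPM and logarithmic above. *Pvalb* is lowest at e14.5 (606 and 639 CPM) and highest at p0, *Calb1* lies between 13.3 and 50.2 CPM on all plates, and *Calb2* spreads from 10.7 to 493 CPM over the p12 plates.

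The p12 spread in *Calb2* ran with the make-up of the plates. Nearly all its p12 UMIs came from clusters 2 and 5, which held 41.7% and 23.1% of the kept neurons on replicates 1 and 2 and 8.96% and 3.23% on replicates 3 and 4. Outside these clusters the plates averaged 18.6, 3.28, 6.33 and 1.75 CPM. In the adult, cluster 1 held 15.0% to 28.8% of the kept neurons of a plate, and outside it *Calb2* averaged 1.41 to 11.04 CPM. In a plate mean, more neurons with the transcript and more transcript per neuron cannot be told apart.

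**Figure D2:**
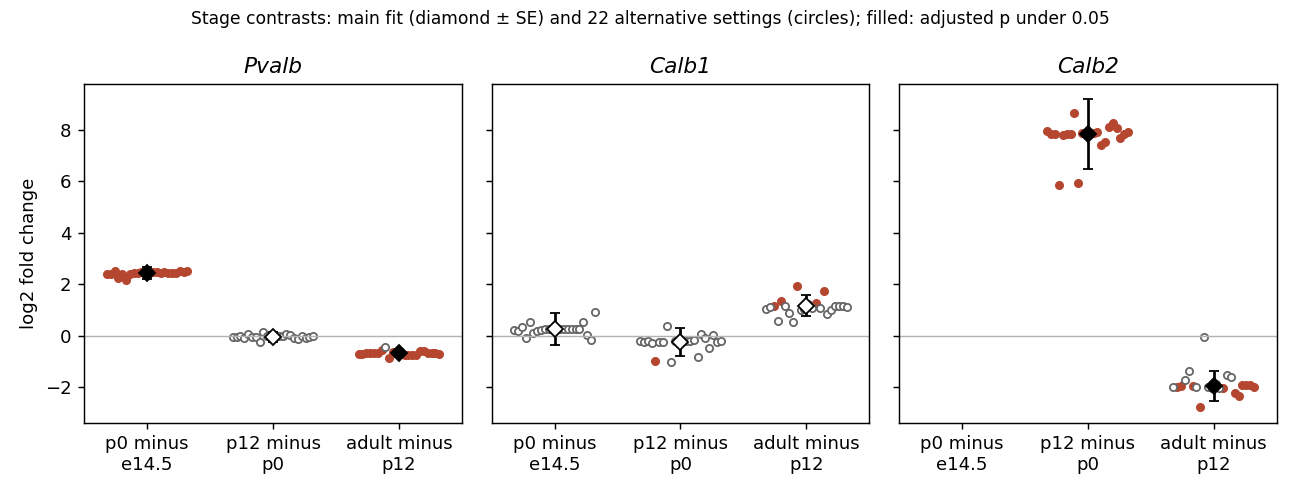
Log2 fold changes between consecutive stages for each gene, from the main edgeR fit (diamond, ± standard error) and from 22 alternative settings (circles); filled symbols have an adjusted p under 0.05, and the e14.5 to p0 contrast of *Calb2* is not drawn because of its low counts. The *Pvalb* rise at p0 and the *Calb2* rise at p12 are filled in all settings, and the *Calb2* difference between p12 and adult is filled in 11 of the 22 circles and lies at -0.03 in 1 of them.

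The authors' clustering used the expression of these very neurons, so what follows is a description of where the transcripts lay, with no test. The authors identify adult cluster 1 as group Ia MS afferents and cluster 5 as group Ib GTO afferents, and propose group II MS afferents for clusters 2 to 4. Values are mean ± SD over the plates with at least 2 neurons of the cluster.

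*Pvalb* was broad. It had a UMI in all 55 p0, 154 p12 and 208 adult neurons kept, and no cluster lacked it. At these 3 stages the sort itself required a history of *Pvalb* expression. At e14.5 it was found in 151 of 169 neurons (89.3%, 95% Clopper-Pearson interval 83.7% to 93.6%) at a median depth of 10604 UMIs. It averaged 637 ± 141 CPM in e14.5 cluster 1 and 771 ± 36.1 CPM in cluster 2 (SD, n = 2 plates). Cluster 2 was the higher on both plates, though on replicate 2 narrowly (745 against 736 CPM). Cluster 3, at 273 ± 25.1 CPM, lay below both on each plate. In cluster 4, with 6 neurons, 4 had a UMI. Single e14.5 neurons reached 3153 CPM with a median of 431 CPM, and the upper end of this range lies above the lowest p0 neuron (2295 CPM). At p0 the clusters averaged 3723 ± 59.9, 3264 ± 223 and 3354 ± 467 CPM, and cluster 3 overlapped both others over the plates while cluster 1 lay above cluster 2. At p12 cluster 5 was highest (3997 ± 593 CPM) and cluster 3 lowest (2772 ± 405 CPM), while clusters 1, 2 and 4 lay between 3348 and 3370 CPM. The neurons between the 10th and 90th percentile differed by 1.64-fold at p0, 1.51-fold at p12 and 2.11-fold in the adult.

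In the adult the levels of *Pvalb* depended on the plates. On replicates 1 and 2, cluster 1 averaged 1825 and 1890 CPM, cluster 2 1895 and 2010 CPM, cluster 5 1731 and 1736 CPM and cluster 4 1635 and 1343 CPM, so that cluster 4 was lowest on both. Cluster 3, with 2 neurons on replicate 2, averaged 2304 CPM there. On replicates 3, 4 and 5, cluster 3 averaged 2597, 2595 and 2501 CPM, cluster 1 2331, 2442 and 2611 CPM and cluster 5 2124, 2155 and 2351 CPM. Cluster 5 was thus below cluster 1 on each of the 5 plates, although over plates their ranges overlapped. Cluster 3 was above cluster 1 on replicates 2, 3 and 4 and below it on replicate 5. The lowest adult neuron had 80.3 CPM (6 UMIs) and belonged to the 42 neurons that the annotation sets apart from the main clusters.

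*Calb2* was the most restricted of the 3. At p12 it had a UMI in all 8 neurons of cluster 2 and all 8 of cluster 5. Cluster 2 averaged 1156 and 1683 CPM on replicates 1 and 2, and cluster 5 676 and 279 CPM on replicates 3 and 4. Without that neuron, the other 2 of cluster 2 on replicate 2 averaged 686 CPM. Single neurons ran from 419 to 3677 CPM in cluster 2 and from 48.4 to 1341 CPM in cluster 5, so the clusters overlap neuron by neuron. These 16 neurons (10.4% of those kept at p12) held 1078 of 1106 *Calb2* UMIs (97.5%). In p12 cluster 1 none of 63 neurons had a UMI, which allows a share with a UMI of up to 4.76% (3 counts in 63) at a median depth of 16185 UMIs. Such a limit is for neurons with a UMI at that depth, not for neurons that express the gene. In clusters 3 and 4, 6 of 17 and 6 of 58 neurons had a UMI, at mean levels of 10.96 ± 10.9 and 7.72 ± 3.08 CPM and with no more than 2 and 12 UMIs in a neuron.

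In the adult, cluster 1 held 666 of 707 *Calb2* UMIs (94.2%) in 24.5% of the neurons. It averaged 141, 153, 171 and 170 CPM on replicates 1 to 4 and 437 CPM on replicate 5, which had 3 neurons of the cluster. The neurons of the cluster were unequal: 19 of 51 had no *Calb2* UMI, 13 had 1 to 5, 9 had 6 to 20 and 10 had more than 20, up to 95. The median was 27.2 CPM and the highest neuron 1377 CPM. The share with a UMI was 61.7% ± 14.54 (SD, n = 5 plates). The neurons with and without a UMI had median depths of 62130.5 and 54588 UMIs. In adult clusters 2 to 5 *Calb2* averaged 10.8, 3.00, 1.27 and 2.25 CPM, with no more than 2 UMIs in any neuron, and was found in 3 of 15, 6 of 41, 1 of 28 and 4 of 31 neurons. Cluster 2 lay above the other 3 on its plates, clusters 3, 4 and 5 overlapped, and all lay below each plate of cluster 1. After thinning to 7000 UMIs, 19 of 51 cluster 1 neurons had a *Calb2* UMI, against 0 of 15, 1 of 41, 0 of 28 and 1 of 31 in clusters 2 to 5. Of the 42 adult neurons set apart, 4 had a UMI and 1 of them, on replicate 4, had 22.

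*Calb1* was low in most clusters of each stage. At e14.5 a UMI was found in 37 of 169 neurons (21.9%, 15.9% to 28.9%), in clusters 1, 2 and 3 alike at 22.6 ± 4.96, 35.7 ± 27.0 and 20.7 ± 0.185 CPM. Cluster 4 had none in 6 neurons of a median depth of 8238.5 UMIs, too few to bound its share usefully (up to 50.0% with a UMI). At p0 it was in 29 of 55 neurons, and the clusters averaged 32.3 ± 1.52, 22.5 ± 18.0 and 39.9 ± 16.9 CPM, all overlapping. The glia markers summed to 3233 CPM in p0 cluster 3 against 101 and 76.3 CPM in clusters 1 and 2, and their part in its level was not tested. At p12 clusters 1, 3, 4 and 5 lay between 12.1 and 16.7 CPM. P12 cluster 2 averaged 25.3 CPM on replicate 1 and 165 CPM on replicate 2, where 1 neuron with 37 UMIs carried the mean and the other 2 averaged 14.6 CPM.

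In the adult, *Calb1* averaged 126, 118, 120, 113 and 71.6 CPM in cluster 1 of replicates 1 to 5. In clusters 2 to 5 it averaged 19.6 ± 3.73, 10.5 ± 2.45, 13.8 ± 6.39 and 19.4 ± 11.9 CPM. No plate of clusters 2 to 5 exceeded 39.5 CPM, so cluster 1 stood above each of them. Cluster 2 lay above cluster 3, and the other pairs among clusters 2 to 5 overlapped. The neurons set apart averaged 28.0 ± 27.5 CPM, with 71.8 CPM on replicate 4, where 1 of 10 neurons had 535 CPM (40 UMIs). Cluster 1 held 418 of 563 adult *Calb1* UMIs (74.2%) and had a UMI in 47 of 51 neurons (92.2%, 81.1% to 97.8%). Elsewhere in the adult 63 of 157 neurons had one. After thinning to 7000 UMIs, 28 of 51 cluster 1 neurons had a *Calb1* UMI, against 1 of 15, 3 of 41, 3 of 28 and 4 of 31 in clusters 2 to 5. The adult neuron lowest in *Pvalb*, on replicate 4, had 535 CPM (40 UMIs) of *Calb1*, the highest level of any kept neuron, and no *Calb2* UMI.

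**Figure D3:**
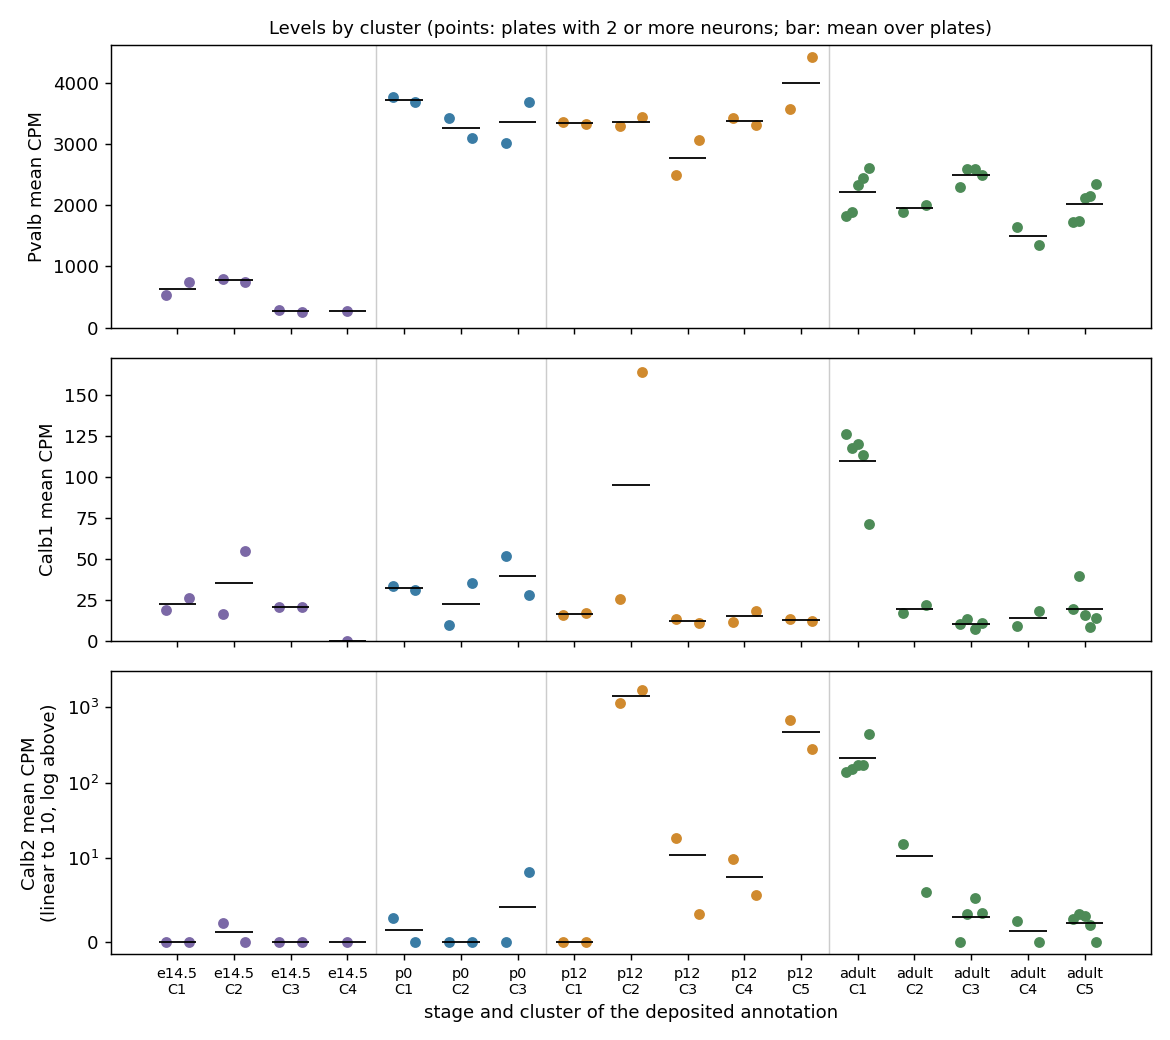
Mean CPM of each gene by stage and cluster (C1 to C5) of the annotation; points are plates with 2 or more neurons of the cluster, bars their mean, and the *Calb2* axis is linear to 10 CPM and logarithmic above. *Pvalb* is spread over all clusters from p0 on, *Calb1* stands out in adult C1 (71.6 to 126 CPM) and on 1 plate of p12 C2, and *Calb2* stands out in p12 C2 and C5 and adult C1.

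Markers of other mechanoreceptors (*Ntrk2*, *Maf*, *Ret*) were high in the clusters rich in *Calb2* at p12 and in the adult. They summed to 381 CPM in adult cluster 1 against 46.9 to 163 CPM in adult clusters 2 to 5, and to 342 and 218 CPM in p12 clusters 2 and 5 against 5.46, 74.1 and 37.9 CPM in p12 clusters 1, 3 and 4. Over all neurons of a stage *Maf* made up most of this sum. Proprioceptor markers were also highest there, at 1840 CPM in adult cluster 1 and 2138 and 1628 CPM in p12 clusters 2 and 5. At e14.5 the other mechanoreceptor markers were high in clusters 3 and 4 (407 and 322 CPM, against 23.5 and 38.5 CPM in clusters 1 and 2), the clusters lowest in *Pvalb*. *Calb2* was at 0 in clusters 1, 3 and 4 alike, and its 1 UMI of the stage lay in cluster 2. The part of these markers in the results was not tested.

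Joint detection was examined in single neurons. At e14.5 no neuron had UMIs of both calbindins, which in 169 neurons allows a share with both UMIs of up to 1.78% at a median depth of 10604 UMIs, and at p0 2 of 55 did. At p12, 14 of 154 neurons had both, 35 had *Calb1* alone, 14 had *Calb2* alone and 91 neither. In the adult, 39 of 208 had both, 71 *Calb1* alone, 11 *Calb2* alone and 87 neither. As *Pvalb*, on which the sort depended from p0 on, was found in every neuron of those stages, each neuron with both calbindins had all 3 transcripts.

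Per plate, the share of neurons with both was 50.0%, 15.4%, 4.48% and 4.84% on p12 replicates 1 to 4, and 25.0%, 15.1%, 18.6%, 22.5% and 5% on adult replicates 1 to 5. After thinning to 7000 UMIs it was 8.33%, 7.69%, 1.52% and 0% at p12, 11.5%, 3.77%, 4.65%, 5% and 5% in the adult, and 0% on the p0 and e14.5 plates (0 of 55 and 0 of 151 neurons, which allows shares with both UMIs of up to 5.45% and 1.99% at that depth only, as 2 of the 55 had both before thinning). The stages overlapped. The thinned adult share exceeded that at p12 by 1.61 percentage points (5.99% ± 3.14, SD, n = 5, against 4.39% ± 4.24, n = 4), with an exact two-sided permutation p of 0.508 over plates and 0.762 after adjustment over 3 contrasts. Against p12 replicates 1 and 2 alone the difference was -2.02 points and against replicates 3 and 4 alone 5.24 points (exact permutation p = 0.571 and 0.0952, the latter the smallest that 5 plates against 2 can give). From p0 to p12 the difference was 4.39 points (exact permutation p = 0.400, adjusted 0.762), and 4 plates against 2 cannot give a p below 0.133. Between e14.5 and p0 both shares were 0, and 2 plates against 2 cannot give a p below 0.333.

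The calbindins were then compared neuron by neuron within the clusters rich in *Calb2*, as a description. In adult cluster 1, 31 of 51 neurons had both transcripts, 16 *Calb1* alone, 1 *Calb2* alone and 3 neither. Of its 32 neurons with *Calb2*, 31 thus had *Calb1* (96.9%). From the shares of each gene within each plate multiplied together, 29.6 neurons with both would be counted, so the excess was small, since nearly all the neurons of the cluster had *Calb1*. Over the 51 neurons Spearman's rho between *Calb1* and *Calb2* CPM was 0.46, a description of neurons that share plates and depth (rho of *Calb1* and *Calb2* with depth 0.43 and 0.29). On all 5 adult plates, the cluster 1 neurons with a *Calb2* UMI averaged more *Calb1* than those without. The means were 148 against 37.5 CPM on replicate 1, 132 against 96.9 on replicate 2, 145 against 76.4 on replicate 3, 196 against 58.5 on replicate 4 and 83.7 against 47.3 on replicate 5, where the groups held 2 neurons and 1. Those with *Calb2* were also the deeper on replicates 1 to 4, and the part of depth was not tested. *Pvalb* did not separate these neurons, with medians of 1943 CPM with and 2180 CPM without a *Calb2* UMI and lower means with *Calb2* on replicates 1, 2 and 4 only.

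In p12 clusters 2 and 5 all 16 neurons had *Calb2*, and 5 of 8 and 4 of 8 of them *Calb1*, so the counts with both equal the products of the shares. Spearman's rho between the levels was 0.61 in cluster 2 and -0.39 in cluster 5, each over 8 neurons. The *Calb1* UMIs numbered 1 or 2 in 7 of the 9 neurons with both and were 10 and 37 in the other 2, both in cluster 2. These 2 neurons had 1717 and 3677 CPM of *Calb2*, while another with 2369 CPM had 1 *Calb1* UMI. Outside clusters 2 and 5, 5 of the 12 p12 neurons with a *Calb2* UMI had *Calb1*, where 40 of 138 neurons had *Calb1*.

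Over whole plates, *Calb1* was found in 13 of 16, 8 of 10, 8 of 10, 9 of 11 and 1 of 3 of the *Calb2* neurons of adult replicates 1 to 5 (39 of 50, 78.0%, 64.0% to 88.5%). At p12 the numbers were 6 of 10, 2 of 4, 3 of 8 and 3 of 6 (14 of 28, 50.0%, 30.6% to 69.4%). Adult replicates 1 to 4 thus lay above all the p12 plates and replicate 5, with 3 such neurons, below them. Among neurons without a *Calb2* UMI, *Calb1* was also found more often in the adult (71 of 158, 44.9%) than at p12 (35 of 126, 27.8%), and the difference between the stages was not tested. The *Calb2* neurons had median depths of 55355 and 52495 UMIs, and those without 33005.5 and 21683.5 UMIs. Of the neurons with at least 10 *Calb2* UMIs, 13 of 14 in the adult and 7 of 15 at p12 had *Calb1*, with median *Calb1* levels of 198 and 0 CPM and median depths of 82117.5 and 56144 UMIs. The intervals cover counting error only.

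**Figure D4:**
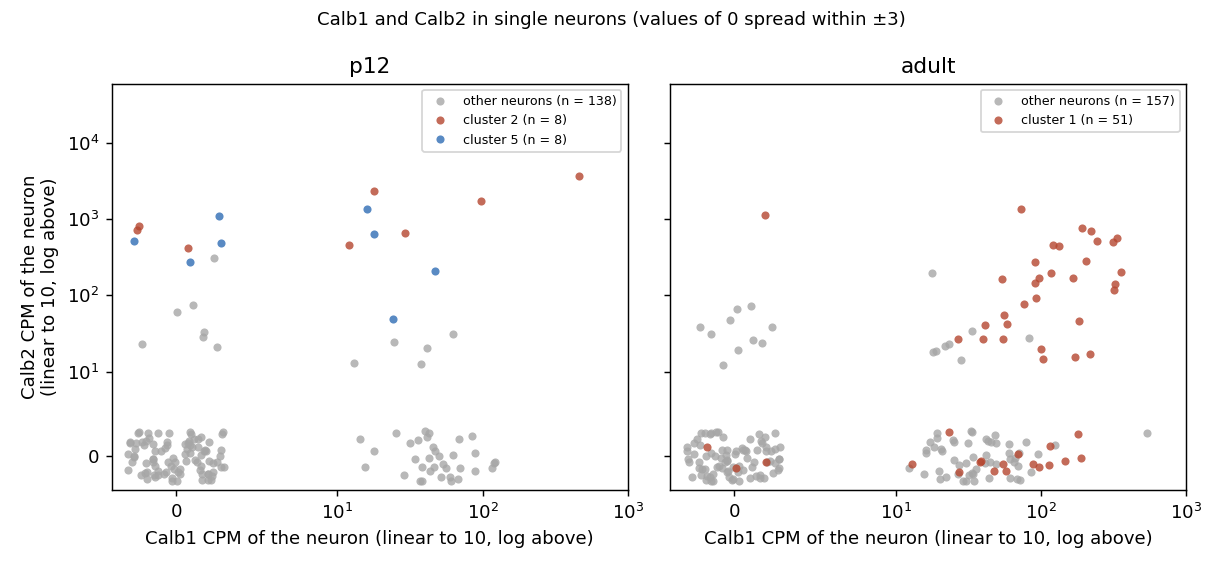
*Calb1* against *Calb2* CPM in each kept neuron at p12 (left) and in the adult (right), on axes that are linear to 10 CPM and logarithmic above, with values of 0 spread around 0. At p12 the 16 neurons of clusters 2 and 5 hold 97.5% of the *Calb2* UMIs, from 48.4 to 3677 CPM in a neuron, and are mostly low in *Calb1*, and in the adult 31 of the 51 neurons of cluster 1 have both.

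Genes related to these by family or by name had few UMIs. Oncomodulin (*Ocm*), the second parvalbumin of mice, had 1 UMI at p12 and 2 in the adult. Secretagogin (*Scgn*), a relative of the calbindins, had 8 UMIs at e14.5 and 2 at p12. *S100g*, which encodes calbindin D-9k and is related by name, had 7 UMIs at p12 and 38 in the adult, in 32 of 208 neurons at 3.50 CPM. None passed the filter on low counts, so none was tested.

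Other genes that handle calcium were counted by list, in the main edgeR fit unless said otherwise. Their calls are not given for each pair of p12 plates. From p12 to the adult that choice moved the genes called from 1687 to 529 (p12 replicates 1 and 2 alone) or 3070 (replicates 3 and 4 alone). Of 19 calmodulins and neuronal calcium sensors, 17 were tested. At p0 6 rose and 1 fell, at p12 6 rose and 3 fell, and 3 rose and 2 fell in the adult, with median log2 fold changes of 0.81, 0.74 and 0.09, beside 0.01, 0.02 and 0.04 over all tested genes. Over all tested genes 27.8%, 18.1% and 14.1% were called at these steps, the background for this list and the next 3. *Vsnl1*, a visinin-like calcium sensor, rose most at p0 (5.31, standard error 0.34, adjusted p = 2.70e-07), and *Ncs1*, a sensor at synapses, fell (-1.28, adjusted p = 0.00979). At p12 *Tesc* rose most (3.38, adjusted p = 7.66e-04) and *Hpca*, which encodes hippocalcin, fell most (-2.51, adjusted p = 0.00538). In the adult *Necab3* rose most (1.05, adjusted p = 0.0467) and *Hpca* again fell most (-3.28, adjusted p = 0.0108).

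Of 8 S100 genes, which encode small EF-hand proteins, 6 were tested. At p0 3 rose and 1 fell, 3 rose and 1 fell at p12, and 1 rose in the adult (medians 1.29, 1.60 and 0.13). At p0 *S100b*, which glia also express, was among those that rose (2.37), and in the same contrast 3 of the 4 tested glia markers were called higher (*Apoe* 5.81, *Fabp7* 5.56, *Mbp* 1.70), whose part was not tested. *S100a13* rose most at p0 (5.46, adjusted p = 6.27e-06) and *S100a11* fell (-1.10, adjusted p = 0.0456). At p12 *S100b* rose most (3.20, adjusted p = 2.04e-06) and *S100a11* fell (-4.77, adjusted p = 3.05e-05), and *S100b* was the only one called in the adult (0.53, adjusted p = 0.0393).

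Calcium pumps and exchangers, which remove the calcium that buffers hold, were tested for 9 of 13 genes. At p0 2 rose and 1 fell, 2 rose and 3 fell at p12, and 1 rose and 1 fell in the adult (medians 0.70, 0.53 and -0.12). *Slc24a2*, a potassium-dependent sodium-calcium exchanger, rose most at p0 (4.00, adjusted p = 4.25e-04) and again at p12 (2.82, adjusted p = 1.51e-04). *Atp2b1*, a plasma membrane calcium pump, fell at p0 (-0.75, adjusted p = 0.0230), and the sodium-calcium exchanger *Slc8a2* fell most at p12 (-4.55, adjusted p = 0.00545). In the adult the pump *Atp2b3* rose (1.42, adjusted p = 0.00552) and *Slc24a3* fell (-2.23, adjusted p = 0.00311).

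Of 15 genes of the calcium stores and of mitochondrial uptake, 12 were tested. Of these only *Ryr2* (1.70, adjusted p = 0.00263), a ryanodine receptor, rose at p0, and only *Ryr1* (-4.03, adjusted p = 0.00597), another, fell at p12, with medians of 0.00 at both steps. None was called in the adult by edgeR (median 0.27), where 3 of the 12 had an unadjusted p under 0.05, and DESeq2 called 0 of the 15. Changes in these lists were read from the same plates as those of the 3 members.

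Over the 17 clusters of the 4 stages, the levels of the 3 genes were related to each other only in part, with Pearson's r of log2(CPM + 1) of 0.44 for *Pvalb* and *Calb1*, 0.46 for *Pvalb* and *Calb2* and 0.46 for *Calb1* and *Calb2*. These are descriptions over clusters that share plates and stages. Of 7842 genes with a mean of at least 10 CPM, the 5 most like *Pvalb* were *Chchd10* (r = 0.97), *Tspan3* (0.97), *Gmpr* (0.96), *Stmn3* (0.96) and *Vsnl1* (0.96), the calcium sensor named above. The 5 most like *Calb1* were *Spsb4* (0.89), *Aars2* (0.88), *Cd55* (0.87), *Cdk8* (0.87) and *Hps3* (0.86). The 5 most like *Calb2* were *Hapln1* (0.89), which encodes a link protein of the extracellular matrix, *Cryba2* (0.87), *Lcp2* (0.87), *Nefm* (0.87), the medium neurofilament subunit, and *Ibsp* (0.86). All 5 of the last group had their highest level in p12 cluster 2, where *Hapln1* reached 134 CPM, against 65.6 CPM in p12 cluster 5 and 29.2 CPM in adult cluster 1. None of these 15 genes was among the 5 most like its member when ranks (Spearman's rho) were used, and with a pseudocount of 10 all 5 stayed for *Pvalb*, 3 for *Calb1* and 4 for *Calb2*.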

How the data were processed

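The authors sorted single neurons into 13 plates of 96 wells, made Plate-seq libraries, used STAR to align reads to mm10 (NCBI annotation), split them by well barcode and collapsed them by UMI (versions not given in the sources used here). The deposited plate tables hold these raw UMI counts per gene and well, and a deposited annotation gives plate, stage and cluster of the 586 neurons kept, of 1137 wells with at least 2000 genes. A deposited table that repeats the counts of all plates was not used here.

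CPM, detection and clusters used the annotated neurons, and plates were the replicates. For stage contrasts, UMIs of the kept neurons were summed per plate, and all 13 plates were fitted by the quasi-likelihood test of edgeR 4.0.16 under R 4.3.3, with its low-count filter and TMM factors (threshold: adjusted p under 0.05). The fit was also run on simulated data, and the outcome is not given here. Joint detection was compared by exact permutation of plates after thinning to 7000 UMIs. Figures were drawn with matplotlib 3.10.9, and other values came from Python 3.11.15 (pandas 2.3.3, scipy 1.17.1, numpy 2.4.6). Alternatives were DESeq2 1.42.0, its size factors in edgeR, no filter, thinning of neurons, all wells of at least 2000 genes, e14.5 clusters 1 and 2 alone, adult replicates 3 to 5 alone, and each plate left out; for joint detection also full depth, at least 2 UMIs of each gene and thinning to 4000 UMIs; for clusters summed UMIs and at least 1 or 4 neurons; and for likeness ranks and a pseudocount of 10. The p12 pairs were added after the data were seen. Members and lists were chosen with earlier results of these data known. Named are the 3 members, the called gene of each list with the largest rise and the largest fall per contrast, the detected genes related by family or name, and the 5 genes most like each member, predicted genes skipped. Doublets were not called. Some marker genes of the glia and other mechanoreceptor lists are not reported here, and the summed levels leave them out.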

Additional observations from a re-analysis of the deposited data

Results flagged for a closer look

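Of 28 groups of 4 or 5 plates examined for a value far from the rest, 4 had one, a rule that by chance alone picks about 5% of groups. *Calb1* on p12 replicate 2 (46.4 CPM) lay apart from the other p12 plates (up to 18.2 CPM), through 1 neuron with 37 UMIs. The thinned share of neurons with both calbindins on adult replicate 1 (11.5%) lay apart from the other adult plates (up to 5%). In adult cluster 1, replicate 5 was lowest for *Calb1* (71.6 CPM, next 113 CPM) and highest for *Calb2* (437 CPM, next 171 CPM), and it held 3 neurons of the cluster.

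Wells with at least 2000 genes that the annotation leaves out, which no comparison of the report uses alone, also held the transcripts. *Pvalb* averaged 665 CPM in the 1 such well at e14.5, 3193 CPM in 92 wells at p0, 2853 CPM in 216 at p12 and 1973 CPM in 242 in the adult. *Calb1* averaged 41.5, 15.3 and 17.2 CPM at p0, p12 and adult, beside 30.9, 18.1 and 43.2 CPM over the kept neurons. *Calb2* averaged 84.2 CPM at p12 and 20.3 CPM in the adult, beside 105 and 46.0 CPM over the kept neurons. The p12 pairs differed here too, with 139 and 89.3 CPM of *Calb2* on replicates 1 and 2 and 24.0 and 1.08 CPM on replicates 3 and 4. Both calbindins were found together in 31 of the 216 p12 wells and 19 of the 242 adult wells. The paper filtered out cells with transcripts of attached satellite glia, 242 of them in the adult. How the left-out wells differ in cell content from the kept ones was not tested here.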

How the results depend on the processing

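No paired analysis was possible because the labels give no replicate numbers that link plates of different stages. The *Pvalb* rise at p0 and the *Calb2* rise at p12 were called in all 22 alternatives. *Calb2* from p12 to adult lost its call with DESeq2 (-1.99), thinned neurons (-1.71), all wells (-1.35), adult replicates 3 to 5 alone (-1.98) and p12 replicates 3 and 4 alone (-0.0304), and ran from -2.34 to -1.496 with 1 plate left out, 7 of 13 such fits keeping the call. *Calb1* from p12 to adult was called with no filter (1.15), all wells (1.37) and p12 replicates 3 and 4 alone (1.96), and ran from 0.87 to 1.76 with 1 plate left out. *Pvalb* from p12 to adult lost its call against p12 replicates 1 and 2 alone (-0.45). Uncalled differences changed sign: *Calb1* from e14.5 to p0 with thinning (-0.0709) and from -0.16 to 0.93 with 1 plate left out, *Calb1* from p0 to p12 with p12 replicates 1 and 2 alone (0.39) and from -0.82 to 0.0733 with 1 plate left out, where all wells gave a call (-0.97), and *Pvalb* from p0 to p12 with all wells (0.065), p12 replicates 3 and 4 alone (0.15) and from -0.104 to 0.0601 with 1 plate left out. The uncalled difference in joint detection from p12 to adult changed sign with full depth (-1.44 points), at least 2 UMIs (-0.15), thinning to 4000 UMIs (-0.90) and p12 replicates 1 and 2 alone (-2.02). With 1 plate left out it ran from 0.15 to 2.92 points, and from p0 to p12 from 3.07 to 5.85.

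Genes called numbered 3314, 2162 and 1687 in the 3 contrasts. Thinning left 1541, 676 and 806, p12 replicates 1 and 2 alone gave 529 and replicates 3 and 4 alone 3070 in the last. With 1 plate left out the counts ran from 1455 (without p0 replicate 1) to 3571, from 884 (without p0 replicate 2) to 2291, and from 787 (without p12 replicate 3) to 1960. The cause was not tested. In e14.5 cluster 3 *Calb1* was 19.9 CPM, and in e14.5 cluster 4 *Pvalb* 289 CPM, from summed UMIs, and *Pvalb* there 132 CPM with a plate of 1 neuron. Depth limits *Calb2* at e14.5 (1 UMI in 169 neurons of a median of 10604 UMIs) more than at p0, where neurons were deepest, and 2 or 4 plates per stage limit the joint shares.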
